A study of Homo sapiens with 100 samples.

Results

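TMD8 clones with an edited BTK gene (A428D) were compared with wild-type TMD8 clones after 24 hours with bexobrutideg plus venetoclax. The members are the 6 A428D libraries of that treatment and the wild-type libraries of clones 1, 2, 4 and 5, chosen by their labels, which makes 10 of the 100 libraries in the series. The wild-type clone 3 library of the same treatment was left out because it held 1476519 counts and was short of transcripts rich in G and C. TMD8 is a human diffuse large B cell lymphoma line of the activated subtype, which lives on chronic B cell receptor signalling. Each clone was grown from a single cell, and each library is 1 clone under 1 treatment, so the spread between libraries of a group is the spread between clones. Clones with the same number in the wild-type and A428D groups are different clones. The series' title names resistance to BTK inhibitors and degraders as its subject. The other conditions used here were the solvent DMSO, bexobrutideg alone and venetoclax alone, each for 24 hours in the same 5 wild-type and 6 A428D clones. The sources used here give no drug doses.

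The growth protocol and the design text place the A428D change in BTK at its own locus, whereas the sample titles of these clones read SF3B1 A428D, and the libraries are treated here as the protocol describes them. A count per gene cannot show which allele a library carries. The library labels spell the degrader Bexobrutidig.

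BTK is the Tec family kinase that links the B cell receptor to phospholipase C gamma 2, calcium release and signalling that frees NF-kB dimers to enter the nucleus. NF-kB then induces its own inhibitors, cytokines, and survival and differentiation genes, so those transcripts are commonly used to read the pathway's activity. Bexobrutideg joins BTK to the ubiquitin ligase receptor cereblon and so marks BTK for the proteasome, and A428 lies in the kinase domain of BTK. Venetoclax occupies the groove of BCL2 that binds BH3-only proteins, which are then free to trigger mitochondrial apoptosis.

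The wild-type libraries of clones 1, 2, 4 and 5 held 6110216, 4475082, 5669355 and 5100040 counts, and the A428D libraries held 5050352 to 7613384 with a median of 6964466. Depth differed between the genotypes before correction for the 8 library properties tested (exact permutation test, two-sided, p = 0.0381, adjusted p = 0.152, smallest possible p 0.00476). Mitochondrially encoded transcripts made up 5.46 to 5.75% of counts in wild-type and 4.40 to 5.83% in A428D libraries. B cell markers were present in every library, with MS4A1 at 988 to 1160 CPM (the gene's share of a library's counts, on the scale of counts per 1000000) in wild-type and 813 to 1400 CPM in A428D clones. The summed level of 12 fibroblast, endothelial and epithelial markers was 16.5 to 19.3 CPM in wild-type and 8.87 to 13.9 CPM in A428D clones (exact permutation test, p = 0.00476, adjusted p = 0.0381, the smallest this design allows before adjustment). Of these, DCN and COL1A1 had the highest means (4.9 and 3.67 CPM), VWF and CDH5 were at 0 in all 10 libraries, and PECAM1 was lower in A428D clones (5.30, 3.41, 4.28 and 5.66 CPM against a lowest, median and highest value of 0, 0.503 and 1.88 CPM, log2 difference -2.53 ± 0.46, adjusted p = 0.00472). T and NK cell markers summed to 1.31 to 2.82 CPM against 0.583 to 2.1 CPM, with CD2, CD3G and NCAM1 at 0, and myeloid markers to 19.5 to 27.5 CPM against 13.9 to 22.6 CPM, with MPO, S100A8, S100A9 and FCGR3A at 0. The part of depth and of these markers in the results below was not tested, except that thinning all libraries to equal depth left 935 genes called. Each library is a clone of a B cell line. In its bulk RNA, fewer cells that express a marker and less of the marker's RNA per cell cannot be told apart.

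In total 12895 genes were tested, and 1048 (8.13%) differed between A428D and wild-type clones at an adjusted p under 0.05. Of these, 527 (4.09%) were higher and 521 (4.04%) were lower in A428D clones, and 223 differed by at least 2-fold. These 2 shares are the background for every count of list members called under the combination below, unless another fit is named. The median log2 difference over all tested genes was 0. The libraries of the 2 genotypes did not overlap for 1153 genes (8.94%). The count of called genes depended on single libraries: it was 589 without wild-type clone 1, 443 without wild-type clone 4, 614 without wild-type clone 5 and 1956 without A428D clone 1. With the wild-type clone 3 library added, 243 genes were called, 242 of them among the 1048. Of the 96 called genes examined one by one, 60 were called whichever single library was left out, and 44 were called with the wild-type clone 3 library added.

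**Figure D1:**
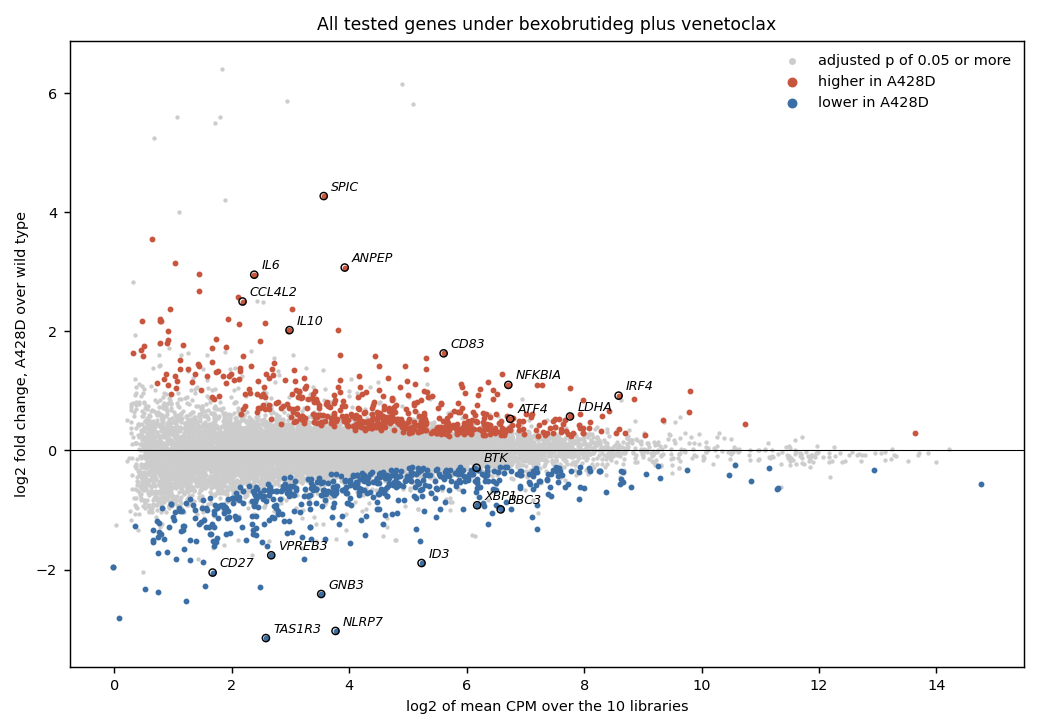
Each point is 1 of the 12895 tested genes, with the log2 mean CPM on the horizontal axis and the log2 difference of A428D minus wild-type clones under bexobrutideg plus venetoclax on the vertical axis. The 527 genes called higher are red, the 521 called lower are blue and the rest are grey.

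BTK itself (chrX:101349447-101390796, minus strand, GRCh38) was at 79.5, 80.2, 82.0 and 80.5 CPM in the wild-type clones. In the A428D clones its lowest, median and highest values were 56.2, 64.9 and 79.1 CPM. All A428D clones lay below all wild-type clones, but the log2 difference of -0.29 ± 0.09 (SE) did not pass the test (adjusted p = 0.0629). Counts measure the transcript, and degradation of the protein would not show in them. Transcripts of CRBN, the cereblon gene, did not pass either (-0.32, adjusted p = 0.136), nor did those of the lymphoid transcription factors IKZF1 (0.10, adjusted p = 0.421) and IKZF3 (0.08, adjusted p = 0.643).

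NF-kB target genes that differed were higher in the A428D clones. Of 32 tested genes of a 33-gene list, 19 were higher and 0 lower, against 4.09% and 4.04% of all genes tested. The list's median log2 difference was 0.62, beside 0 over all genes, and 29 of the 32 were above 0. Called members cover pathway inhibitors (NFKBIA, NFKBIE, TNFAIP3 and TNIP1), the inhibitor-like genes NFKBID and NFKBIZ, and subunits (NFKB1, NFKB2, RELB and REL). The others are secreted ligands (CCL4, IL10, IL6, TNF and EBI3), surface proteins (CD83 and ICAM1), the microRNA host MIR155HG and the transcription factor IRF4. Leaving out each library in turn gave 16 to 21 called higher and 0 lower, and adding the wild-type clone 3 library gave 9 and 0.

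Promoter windows from RefSeq (GRCh38.p14, 250 bases before to 50 after each start) were found for 16 of these 19 genes. The 10-letter NF-kB consensus, searched on both strands with a gene counted once however many overlapping matches it had, occurred in 10 of the 16. It occurred in 5.91% of all 35116 windows, a share per window, whereas a gene with several windows counted if any of them matched. The list was drawn up as NF-kB targets and its members that were not called were not searched, so these shares are no test. The stretches below, 5′ to 3′ on the gene's strand, show the match in capitals with 10 bases on each side for inhibitors, subunits and targets whose levels are given next. They are sequence matches, and binding was not measured.
NFKBIA, chr14:35404811-35404840, minus strand, match from base -81: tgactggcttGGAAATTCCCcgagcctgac
TNFAIP3, chr6:137867182-137867211, plus strand, match from base -67: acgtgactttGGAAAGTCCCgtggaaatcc
NFKB1, chr4:102501300-102501329, plus strand, match from base -49: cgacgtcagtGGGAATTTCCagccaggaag
NFKB2, chr10:102395674-102395703, plus strand, match from base -21: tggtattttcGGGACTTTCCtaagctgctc
CD83, chr6:14117686-14117715, plus strand, match from base -76: gctgcccgccGGGGAATCCCccgggctggc
IL6, chr7:22727117-22727146, plus strand, match from base -73: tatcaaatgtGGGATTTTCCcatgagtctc

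NFKBIA (chr14:35401511-35404749, minus strand), which encodes the inhibitor that holds NF-kB in the cytoplasm, was at 59.1, 58.6, 69.5 and 60.4 CPM in the wild-type clones. The A428D clones had a lowest value of 114, a median of 132 and a highest value of 155 CPM. The groups did not overlap, with means of 61.9 ± 5.13 (SD, n = 4) and 133 ± 16.3 CPM (SD, n = 6) and a log2 difference of 1.10 ± 0.10 (SE, adjusted p = 1.83e-05). TNFAIP3, the A20 deubiquitinase that shuts the pathway down, was at 16.7, 13.9, 14.4 and 16.6 CPM in wild-type clones and at 18.2, 20.6 and 27.2 CPM (lowest, median, highest) in A428D clones. Its difference was smaller, 0.48 ± 0.13 (adjusted p = 0.0355), and its groups also did not overlap. NFKBID, a nuclear inhibitor-like protein, was higher by 1.18 ± 0.14.

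Among the subunits, NFKB1 was at 46.5, 46.6, 46.9 and 49.3 CPM in wild-type clones and at 73.6, 93.4 and 104 CPM (lowest, median, highest) in A428D clones. NFKB2 was at 10.6, 10.5, 11.8 and 10.5 CPM in wild-type clones and at 16.3, 18.8 and 19.7 CPM in A428D clones. RELB, the partner of the NFKB2 product in the alternative pathway, was at 29.5, 24.3, 23.2 and 23.1 CPM against 45.2, 50 and 54.7 CPM. None of these 3 genes had overlapping groups, and the log2 differences were 0.93 ± 0.10 (NFKB1, adjusted p = 8.99e-05), 0.75 ± 0.11 (NFKB2, adjusted p = 0.000606) and 0.98 ± 0.10 (RELB, adjusted p = 3.78e-05). With the wild-type clone 3 library added, NFKB1 stood at 0.54 and did not pass (adjusted p = 0.309), nor did NFKB2 (0.92, adjusted p = 0.0626).

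Surface and secreted targets included larger differences. CD83, a marker of activated B cells, was at 24.7, 25.9, 16 and 19.9 CPM in wild-type clones and at 54.4, 65.1 and 83.1 CPM (lowest, median, highest) in A428D clones. Its groups did not overlap (log2 difference 1.63 ± 0.14, adjusted p = 1.83e-05). The cytokine gene IL6 was at 0.663, 1.82, 0.891 and 0.838 CPM in wild-type clones and at 5.43, 7.35 and 11.9 CPM in A428D clones (2.95 ± 0.33, adjusted p = 0.000105). IL10 was at 2.98, 3.64, 2.85 and 1.68 CPM against 6.46, 10.7 and 15.3 CPM (2.02 ± 0.27, adjusted p = 0.000535). Neither cytokine had overlapping groups, although both were scarce transcripts in every library. The chemokine CCL4 was higher by 1.72 ± 0.35 (adjusted p = 0.00711), and because CCL4L2 is a near-identical copy the split of reads between them is uncertain.

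IRF4 (chr6:391739-411447, plus strand), the transcription factor on which activated B cell type lymphoma depends, was at 264, 265, 242 and 229 CPM in wild-type clones. Its lowest, median and highest values in A428D clones were 362, 494 and 554 CPM. The groups did not overlap, with means of 250 ± 17.4 and 474 ± 66.8 CPM and a log2 difference of 0.92 ± 0.10 (adjusted p = 0.000105). With the wild-type clone 3 library added, the IRF4 difference was 0.60 and did not pass (adjusted p = 0.206). BATF, an AP-1 factor that binds with IRF4, was at 83.3, 96.3, 84.3 and 86.8 CPM in wild-type clones and at 157, 195 and 204 CPM in A428D clones. Its groups stood apart by 1.10 ± 0.09 (adjusted p = 1.45e-05).

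**Figure D2:**
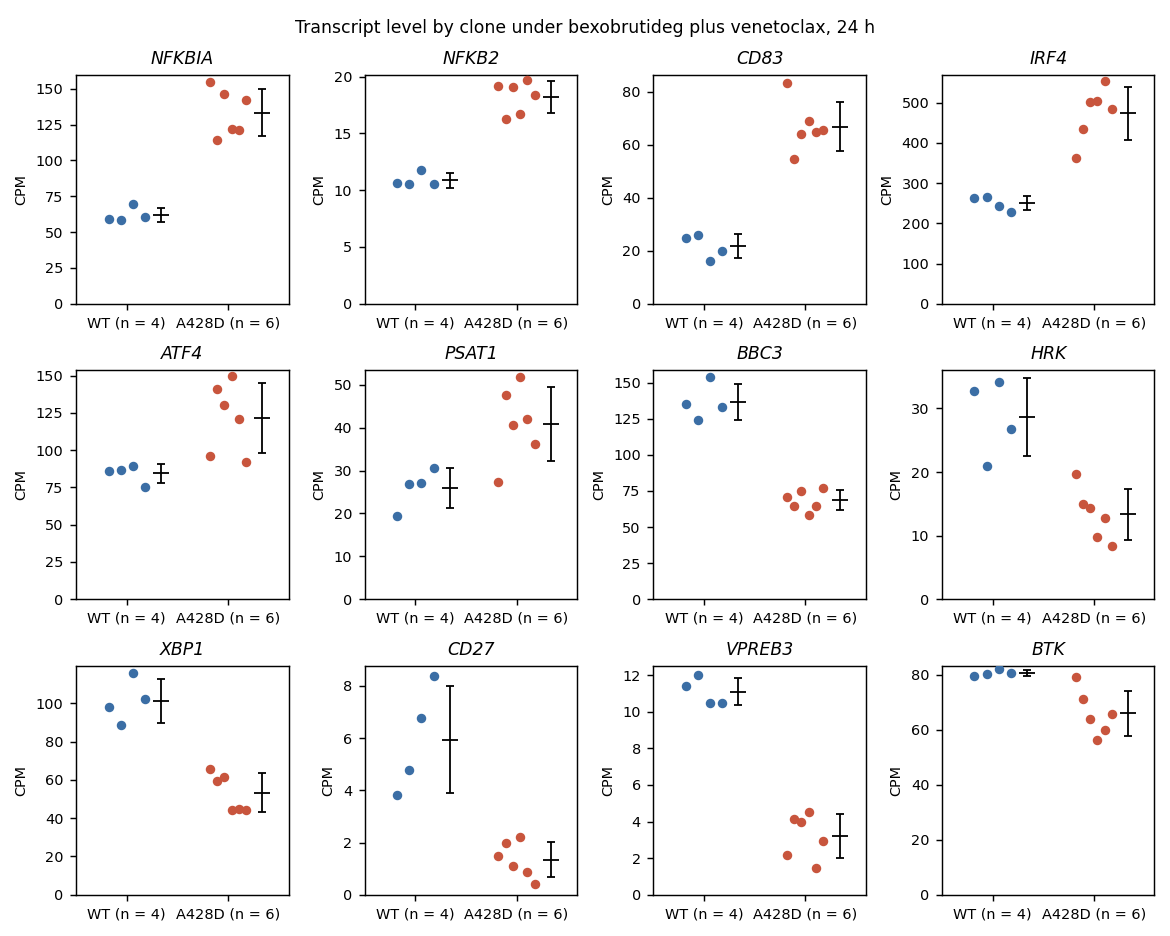
Level of 12 genes in each clone under bexobrutideg plus venetoclax, in CPM on a linear axis that starts at 0, with 4 wild-type clones and 6 A428D clones as points and mean ± SD as bars. NFKBIA, CD83, IRF4 and NFKB2 are higher and BBC3, XBP1, CD27 and VPREB3 lower in every A428D clone than in every wild-type clone, while the PSAT1 groups overlap.

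The same genotype difference in the other conditions places these values. Wild-type NFKBIA averaged 110 CPM under DMSO, 49.8 under bexobrutideg, 170 under venetoclax and 62.7 under the combination, whereas the A428D clones averaged 102, 92.7, 135 and 135 CPM. IRF4 averaged 446, 220, 605 and 253 CPM in wild-type clones and 370, 391, 521 and 481 CPM in A428D clones, in the same order. Both genes were thus at their lowest wild-type levels where bexobrutideg was present. The NFKBIA genotype difference under DMSO was -0.11 (adjusted p = 0.485), so that the change of the genotype difference from DMSO to the combination was 1.22 ± 0.14 (adjusted p = 1.66e-07). For IRF4 that change was 1.20 ± 0.16 (adjusted p = 8.37e-06), and the combination against DMSO gave -0.82 in wild-type and 0.38 in A428D clones. CD83 was already higher in A428D clones under DMSO, by 1.03 (adjusted p = 1.58e-05), and its change of 0.60 ± 0.23 passed with clone as a block (adjusted p = 0.00113) but not without it (adjusted p = 0.186).

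For the whole NF-kB list, 33 genes could be tested across the 4 conditions. In wild-type clones the combination against DMSO called 1 higher and 15 lower (median -0.56), against 10.6% and 9.54% of the 14553 genes tested. In A428D clones it called 5 higher and 1 lower (median 0.15), against 10.7% and 9.85% of all genes. The change of the genotype difference from DMSO to the combination passed for 12 members, all 12 positive, where 0.976% of all genes passed in that direction and 0.742% in the other. From venetoclax alone to the combination it passed for 16 members, all positive, against 1.68% and 1.59% of all genes. Under DMSO the genotypes differed for 6 members up and 6 down (4.55% and 4.34% of all genes). Under bexobrutideg alone 17 were higher and 0 lower (11.5% and 9.22%), and under venetoclax alone 3 were higher and 10 lower (2.67% and 2.56%). In this same fit the combination gave 20 higher and 0 lower, where 657 of the 14553 genes were higher and 662 lower. These contrasts share libraries, so they are given side by side.

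Other outputs of B cell receptor signalling were mixed. Of 19 tested genes of the immediate early and ERK feedback list, 6 were higher and 1 was lower, with a median of 0.23 (2 to 7 higher when each library was left out in turn). Over all genes 4.09% were higher and 4.04% lower. EGR2, an immediate early transcription factor, was at 0, 0.227, 0.178 and 0.419 CPM in wild-type clones and at 1.17, 2.35 and 3.52 CPM (lowest, median, highest) in A428D clones (3.55 ± 0.56, adjusted p = 0.00115). The phosphatase gene DUSP2, which restrains ERK, was at 20.2, 21.6, 15.5 and 15.9 CPM against 46.2, 50.7 and 64.8 CPM (1.56 ± 0.13, adjusted p = 1.45e-05). DUSP5, another ERK phosphatase, went the other way, at 132, 113, 125 and 132 CPM against 47.4, 59.0 and 107 CPM (-0.91, adjusted p = 0.0202). None of the 3 genes had overlapping groups, and the DUSP5 call was lost without wild-type clone 1, 4 or 5 or A428D clone 5.

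Components of the receptor pathway itself were called in both directions, 4 higher and 5 lower of 26, with a median of -0.04 (1 and 1 with the wild-type clone 3 library added). The shares over all genes were 4.09% and 4.04%. SYK, the kinase next to the receptor, was at 300, 291, 332 and 315 CPM in wild-type clones and at 176, 200 and 239 CPM in A428D clones (-0.62 ± 0.08, adjusted p = 0.000415). PTPN6, which encodes the phosphatase SHP-1 that damps the receptor, was at 44.7, 49.3, 56.5 and 53 CPM against 76.1, 87.5 and 92.4 CPM (0.76 ± 0.09, adjusted p = 0.000105). Neither gene had overlapping groups. The adaptor genes PIK3AP1 and DAPP1 stood at 0.64 (adjusted p = 0.000771) and -0.60 (adjusted p = 0.0019), and PIK3AP1 was at 0.22 (adjusted p = 0.707) with the wild-type clone 3 library added. CD79A, a signalling chain of the receptor, was lower by 0.39 on the log2 scale (-0.39 ± 0.07, adjusted p = 0.00407), with every A428D clone below every wild-type clone, and was at -0.13 (adjusted p = 0.891) with that library added. PLCG2 and MYD88 did not pass (-0.03 and -0.09).

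Among genes of mitochondrial apoptosis, the BH3-only group held the called differences. Of 8 tested, 1 was higher and 3 were lower (median -0.18), beside 4.09% and 4.04% of all genes. By contrast, 0 of the 6 tested multidomain BCL2 family genes passed edgeR's test (2 at an unadjusted p under 0.05, 0 by DESeq2). With the wild-type clone 3 library added, 0 BH3-only genes were higher and 2 lower. BBC3 (chr19:47220822-47232766, minus strand), which encodes PUMA, was at 135, 124, 154 and 133 CPM in wild-type clones. In the A428D clones its lowest, median and highest values were 58.7, 68.0 and 76.9 CPM. The groups did not overlap, with means of 136 ± 12.5 and 68.6 ± 7 CPM and a difference of -0.99 ± 0.09 (adjusted p = 1.83e-05). HRK, a BH3-only protein of narrow tissue range, was at 32.8, 20.9, 34.1 and 26.8 CPM against 8.38, 13.6 and 19.7 CPM (-1.10 ± 0.20, adjusted p = 0.00572). BMF, which is tied to the cytoskeleton until released, was at 30.0, 29.1, 44.7 and 36.9 CPM against 16.5, 23.8 and 25.6 CPM (-0.62 ± 0.14, adjusted p = 0.0125), and this call was lost without wild-type clone 4 (adjusted p = 0.0702). BID, which caspase 8 cleaves to carry the death signal to mitochondria, was the member called higher, at 62.3, 78.2, 66.3 and 69.0 CPM against 91.9, 105 and 114 CPM (0.61 ± 0.09, adjusted p = 0.000652). CASP8 itself was lower, by 0.49 on the log2 scale (-0.49 ± 0.09, adjusted p = 0.00482). It was the 1 called member among 21 caspase and death machinery genes (median -0.01), beside 4.04% of all genes called lower, so this list did not stand out. With the wild-type clone 3 library added, 0 members of this list were called.

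BBC3 averaged 168, 221, 73.3 and 138 CPM in wild-type clones and 146, 141, 75.0 and 69.7 CPM in A428D clones under DMSO, bexobrutideg, venetoclax and the combination. Wild-type means were thus higher with bexobrutideg than without it, on either background, and A428D means were not. The genotypes differed by -0.20 under DMSO (adjusted p = 0.166) and by 0.03 under venetoclax (adjusted p = 0.90), and the change from DMSO to the combination was -0.79 ± 0.14 (adjusted p = 0.000873). HRK had its highest wild-type mean under bexobrutideg too (29.1, 42.3, 10.4 and 29 CPM in wild-type, and 25.9, 26.0, 11.9 and 13.5 CPM in A428D clones). Its change of -0.93 passed with clone as a block (adjusted p = 4.96e-05) and not without it (adjusted p = 0.19).

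The drug target BCL2 was at 41.9, 39.3, 41.9 and 31.9 CPM in wild-type clones and at 31.8, 37.6 and 42.7 CPM in A428D clones. MCL1, the guardian most often tied to venetoclax tolerance, was at 223, 175, 190 and 190 CPM against 160, 174 and 196 CPM. Both overlapped, with differences of -0.06 ± 0.10 (adjusted p = 0.78) and -0.16 ± 0.08 (adjusted p = 0.252). BCL2L1, which encodes BCL-XL, stood at 0.43 ± 0.16 (adjusted p = 0.103) and BCL2A1 at 0.27 ± 0.16 (adjusted p = 0.31). Of 22 tested p53 target genes, 2 were higher and 2 lower (median 0.06), beside 4.09% and 4.04% of all genes. PLK3, a stress kinase, was at 7.45, 7.27, 6.42 and 5.66 CPM against 11.1, 13.4 and 15.1 CPM (1.00, adjusted p = 0.000454). MDM2, the p53 ligase, was higher by 0.37 (adjusted p = 0.0264, lost without wild-type clone 2, 4 or 5 or A428D clone 4), and its difference was -0.10 with the wild-type clone 3 library added. The 2 lower members were BBC3 and GADD45A, a growth arrest gene (-0.76, adjusted p = 0.0254, lost without wild-type clone 4 or 5 or A428D clone 5).

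In the integrated stress response, ATF4 induces genes of amino acid synthesis, transport and tRNA charging. Of 24 tested genes of a 29-gene list, 6 were higher and 0 lower, with a median of 0.29, and the list of 20 tRNA synthetases had 2 higher and 0 lower with a median of 0.23 (1 to 6 higher when each library was left out in turn, 1 with the wild-type clone 3 library added). Over all genes 4.09% were higher and 4.04% lower. KARS1, 1 of the 2 synthetases, lost its call when any of 7 libraries was left out. The stress response count ran from 1 to 9 when each library was left out in turn and was 1 with the wild-type clone 3 library added. ATF4 (chr22:39519695-39522685, plus strand) was at 85.8, 87.0, 89.7 and 75.0 CPM in wild-type clones and at 92.4, 126 and 150 CPM in A428D clones. The groups did not overlap (0.53 ± 0.13, adjusted p = 0.0218), but the call was lost without wild-type clone 1, 4 or 5. ATF5, a related factor, was at 500, 520, 733 and 498 CPM against 765, 1100 and 1560 CPM (1.00 ± 0.20, adjusted p = 0.0141). CARS1, the cysteinyl-tRNA synthetase, was at 55.3, 64.5, 56.9 and 55.8 CPM against 77.0, 110 and 125 CPM (0.86 ± 0.12, adjusted p = 0.000512). PSAT1 of serine synthesis overlapped between the groups (0.67 ± 0.17, adjusted p = 0.0296), and its call was lost without wild-type clone 1, 2 or 4 or A428D clone 3 or 5.

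A promoter window was found for 5 of the 6 called stress response genes. The composite ATF4 element TGATGNAA, searched on both strands, occurred in 2 of the 5 and in 3.62% of all windows. The first count is again per gene and the second per window, so they are no test. In CEBPG, a partner of ATF4 that was higher by 0.38 (adjusted p = 0.0481), the match lies just before the start and is shown in capitals.
CEBPG, chr19:33374061-33374088, plus strand, match from base -42: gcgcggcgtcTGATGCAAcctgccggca

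In wild-type clones the combination against DMSO called 0 of 26 stress response genes higher and 23 lower (median -1.24). In A428D clones it called 0 higher and 12 lower (median -0.40). The shares of all genes called lower were 9.54% in wild-type and 9.85% in A428D clones. Under DMSO the list had been lower in A428D clones, with 15 members called lower and 0 higher (median -0.49). Of all genes, 4.34% were lower and 4.55% higher there. The change of the genotype difference was positive for all 12 members that passed from DMSO to the combination. In that direction 0.976% of all genes passed, and 0.742% in the other. ATF4 averaged 278, 141, 210 and 85.4 CPM in wild-type clones and 173, 192, 126 and 124 CPM in A428D clones under DMSO, bexobrutideg, venetoclax and the combination. The genotype order for ATF4 thus differed with the condition, from -0.68 under DMSO (adjusted p = 0.00204) to 0.53 under the combination, a change of 1.22 ± 0.22 (adjusted p = 0.00119). SESN2, a stress-induced regulator of mTORC1, averaged 9.01 and 1.65 CPM in wild-type clones under DMSO and the combination, and 3.12 and 2.36 CPM in A428D clones. Its change was 2.12 ± 0.48 (adjusted p = 0.0105, lost without wild-type clone 4), although its difference under the combination did not pass (0.59, adjusted p = 0.475).

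Of 31 tested genes of the endoplasmic reticulum and plasma cell programme, 2 were higher and 12 lower in A428D clones, with a median of -0.25 and 5 members above 0. Between 7 and 16 were lower when each library was left out in turn, and 3 with the wild-type clone 3 library added. XBP1 (chr22:28794555-28800597, minus strand), the transcription factor of secretory differentiation, was at 97.9, 88.6, 116 and 102 CPM in wild-type clones. In A428D clones the lowest, median and highest values were 44.0, 52.2 and 65.9 CPM, with no overlap (-0.92 ± 0.13, adjusted p = 0.000518). MZB1, a chaperone of antibody secreting cells, was at 95.9, 87.2, 104 and 106 CPM against 48.3, 59.2 and 62.6 CPM (-0.78 ± 0.09, adjusted p = 0.000131). PRDM1, which encodes Blimp-1, was at 169, 125, 164 and 143 CPM against 75.5, 95.0 and 123 CPM (-0.60 ± 0.12, adjusted p = 0.00885), and POU2AF1, a coactivator of immunoglobulin genes, was lower by 0.58 on the log2 scale (-0.58, adjusted p = 0.00253). The 2 members called higher were IRF4 and EDEM1, a factor of glycoprotein disposal (0.50, adjusted p = 0.0156). MZB1 stood at -0.50 (adjusted p = 0.552) and EDEM1 at 0.11 (adjusted p = 0.868) with the wild-type clone 3 library added. A promoter window was found for 10 of the 12 members called lower. An 8-letter XBP1 element occurred in 1 of these 10 genes, and in 0.729% of all windows.

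In the fit over the 4 conditions this list had 0 members called higher and 23 of 32 lower in A428D clones under DMSO. Of all genes, 4.55% were higher and 4.34% lower there. The list had 2 and 21 under bexobrutideg (11.5% and 9.22% of all genes) and 0 and 17 under venetoclax (2.67% and 2.56%). Under the combination in that fit it had 1 and 10, where 657 and 662 of the 14553 genes were called. Its change of the genotype difference from DMSO passed for 7 members, all 7 positive, with a list median of 0.25. Of all genes, 0.976% passed in that direction and 0.742% in the other. The change passed for 4 to 11 members when each library was left out in turn and for 4 with the wild-type clone 3 library added. With clone as a block it passed for 16 positive and 3 negative members, where 640 of all genes passed upward and 851 downward. XBP1 was among the members that did not pass, with a change of -0.22 (adjusted p = 0.803) and a genotype difference of -0.69 under DMSO (adjusted p = 0.00962).

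**Figure D3:**
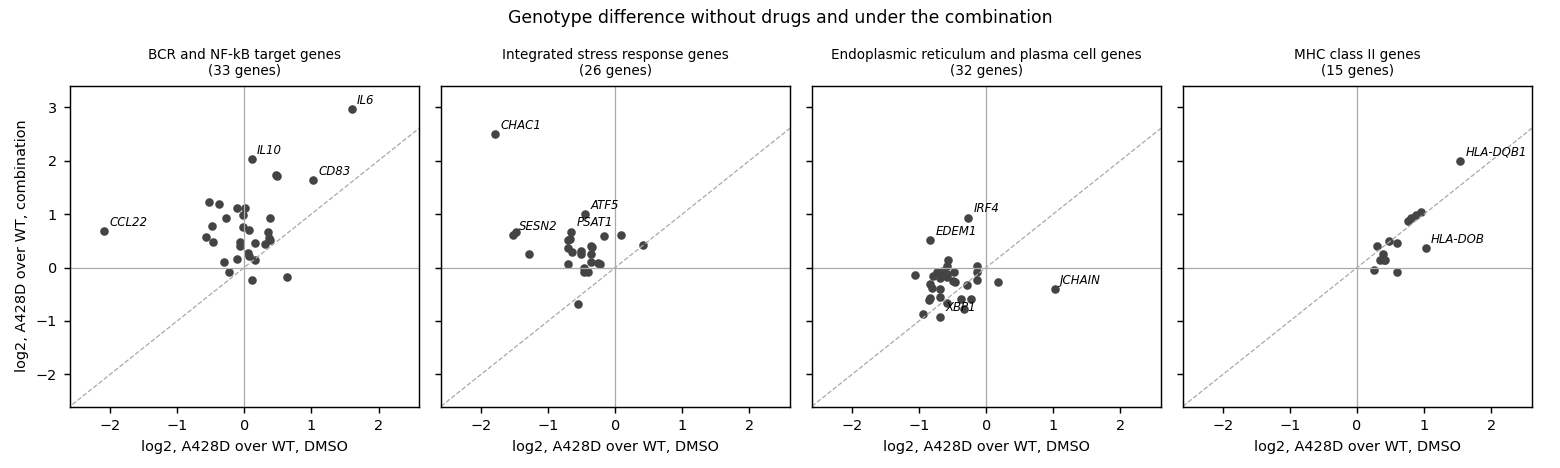
Genotype difference (A428D minus wild-type, log2) of each gene under DMSO on the horizontal axis and under bexobrutideg plus venetoclax on the vertical axis, for 33 NF-kB, 26 stress response, 32 endoplasmic reticulum and 15 MHC class II genes. The dashed line marks equal differences, and the NF-kB and stress response genes lie mostly above it, with median changes of 0.60 and 0.76.

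MHC class II genes present peptide to CD4 T cells. Of 15 tested, 4 were higher in A428D clones and 0 lower, with a median of 0.40 and 13 above 0 (3 to 6 higher when each library was left out in turn, 2 with the wild-type clone 3 library added). HLA-DQB1 was at 4.14, 1.59, 2.50 and 2.52 CPM in wild-type clones and at 5.76, 11.9 and 16.1 CPM in A428D clones (2.00 ± 0.38, adjusted p = 0.00767). HLA-DRB1 was at 56.7, 47.9, 58.3 and 53.7 CPM against 76.6, 124 and 130 CPM (1.02 ± 0.16, adjusted p = 0.00225). Neither gene had overlapping groups, and reads of HLA-DRB1 and HLA-DRB5 may be shared between these similar genes. CIITA, the master regulator of the class, stood at 0.40 and did not pass (adjusted p = 0.0554). The genotype difference in these genes was there without the drugs, in the fit over the 4 conditions. That fit called 11 of 15 higher under DMSO (median 0.59), 12 under bexobrutideg and 12 under venetoclax. The shares of all genes called higher there were 4.55%, 11.5% and 2.67%. Under the combination the same fit called 5 higher and 0 lower (median 0.4), where 657 of 14553 genes were higher and 662 lower. The 4 above came from the fit of the combination alone. The change from DMSO to the combination passed for 0 higher and 1 lower, against 0.976% and 0.742% of all genes.

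B cell identity genes were called in both directions, 4 higher and 10 lower of 29 tested (median -0.18). With the wild-type clone 3 library added, 0 were higher and 3 lower. CD27 (chr12:6444867-6451718, plus strand), a costimulatory receptor of memory B cells, was at 3.81, 4.77, 6.77 and 8.38 CPM in wild-type clones and at 0.419, 1.29 and 2.21 CPM in A428D clones. VPREB3, a chaperone of the early B cell receptor, was at 11.4, 12, 10.5 and 10.5 CPM against 1.47, 3.46 and 4.54 CPM. Neither gene had overlapping groups (-2.05 ± 0.32, adjusted p = 0.00106 for CD27, and -1.76 ± 0.22, adjusted p = 0.000223 for VPREB3). CD27 averaged 1.30, 4.36, 1.37 and 6.01 CPM in wild-type clones under DMSO, bexobrutideg, venetoclax and the combination, and 1.35, 1.18, 1.15 and 1.37 CPM in A428D clones. VPREB3 wild-type means were likewise higher with bexobrutideg than without it, at 3.37, 9.85, 3.01 and 11.3 CPM, against 4.28, 3.92, 2.17 and 3.26 CPM in A428D clones. The changes from DMSO to the combination were -2.1 ± 0.45 for CD27 (adjusted p = 0.00612) and -2.1 ± 0.36 for VPREB3 (adjusted p = 0.000802). Among the members called higher, EBF1, a factor that specifies the B lineage, was at 116, 106, 95.9 and 103 CPM against 134, 164 and 180 CPM (0.60, adjusted p = 0.00106). CD37, a tetraspanin that is a lymphoma therapy target, was lower (-0.52, adjusted p = 0.00694). EBF1 stood at 0.28 (adjusted p = 0.553) and CD37 at -0.23 (adjusted p = 0.83) with the wild-type clone 3 library added.

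Of 28 tested glycolysis and hypoxia genes, 12 were higher and 0 lower, with a median of 0.41 and 26 above 0. The count was 7 to 13 when each library was left out in turn and 2 with the wild-type clone 3 library added. PDK1, which keeps pyruvate out of mitochondria, was at 2.82, 3.41, 4.99 and 2.72 CPM in wild-type clones and at 5.76, 8.36 and 12.5 CPM in A428D clones (1.27 ± 0.25, adjusted p = 0.00613). ENO1, the enolase of glycolysis, was at 598, 712, 651 and 672 CPM against 763, 1050 and 1240 CPM (0.64 ± 0.12, adjusted p = 0.00472). ALDOC, an aldolase, was at 17.1, 15.7, 21.6 and 17.4 CPM against 25.8, 43.2 and 52.9 CPM (1.16 ± 0.22, adjusted p = 0.00881). None of the 3 overlapped between genotypes. LDHA was higher by 0.57 ± 0.13 (adjusted p = 0.0165, lost without wild-type clone 1 or 4, and 0.38 with the wild-type clone 3 library added). The combination against DMSO called 17 of 31 lower in wild-type clones (median -0.74) and 21 lower in A428D clones (median -0.64). The shares of all genes called lower were 9.54% and 9.85%. The change between the genotypes passed for 0 of 31 by edgeR (median 0.19), beside 1.72% of all genes. At an unadjusted p under 0.05 there were 6, by DESeq2 1, and with clone as a block 5, beside 10.2% of all genes with the block.

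MYC, which drives growth and ribosome production, was at 126, 141, 103 and 125 CPM in wild-type clones and at 122, 172 and 197 CPM in A428D clones. The groups overlapped, and the difference of 0.43 ± 0.12 (adjusted p = 0.0366) was lost without wild-type clone 1, 4 or 5 or A428D clone 3, 4, 5 or 6 and was -0.07 with the wild-type clone 3 library added. Of 27 MYC target and ribosome biogenesis genes, 9 were higher and 0 lower (median 0.24; 2 to 12 when each library was left out in turn, 0 with the wild-type clone 3 library added), among them ODC1, the first enzyme of polyamine synthesis, at 163, 201, 183 and 199 CPM against 223, 282 and 323 CPM (0.61, adjusted p = 0.0019). None of 25 S phase genes passed edgeR's test (4 at an unadjusted p under 0.05, 0 by DESeq2, up to 11 when a single library was left out), although 24 were above 0 (median 0.28). None of 24 mitosis genes passed (0 at an unadjusted p under 0.05, 0 by DESeq2, up to 7 when a single library was left out), and 21 were above 0 (median 0.29). The combination against DMSO called 19 S phase genes higher in wild-type and 20 in A428D clones, with medians of 0.87 and 0.83. The shares of all genes called higher were 10.6% and 10.7%.

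**Figure D4:**
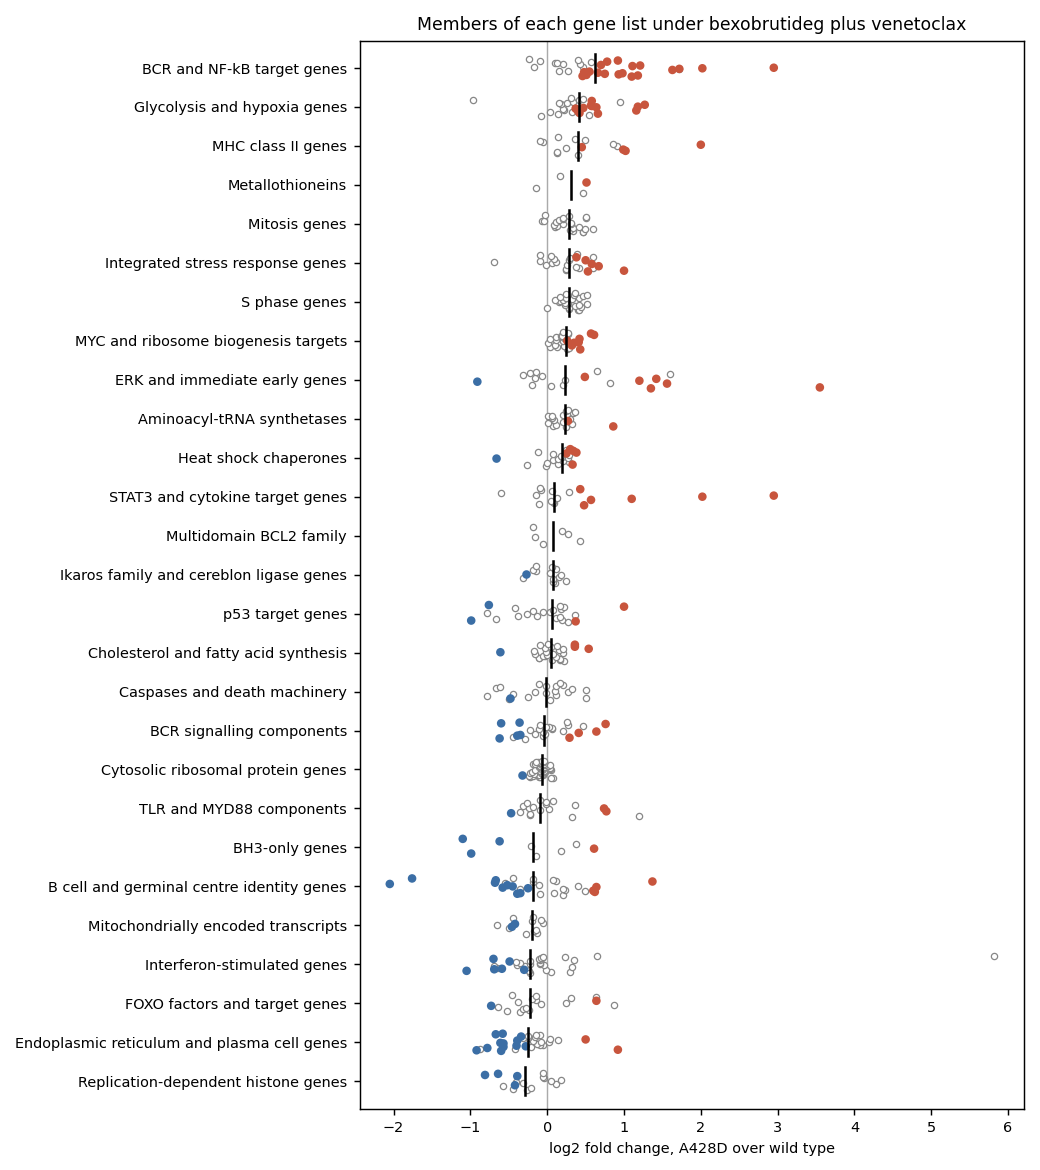
Log2 difference of A428D minus wild-type clones under bexobrutideg plus venetoclax for each tested member of 27 gene lists, with called genes as filled dots, other genes as open dots and each list's median as a black bar. The NF-kB list has the median of 0.62 and the glycolysis list that of 0.41, while the endoplasmic reticulum list has -0.25.

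Interferon-stimulated genes were lower where edgeR called them, 0 higher and 6 lower of 34 tested (median -0.22; 0 to 1 higher and 2 to 8 lower when each library was left out in turn). DESeq2 called 1 higher and 6 lower, and adding the wild-type clone 3 library gave 1 higher and 2 lower. ISG20, an exonuclease, was at 151, 97.9, 131 and 117 CPM in wild-type clones and at 38.7, 60.6 and 74.8 CPM in A428D clones (-1.05 ± 0.16, adjusted p = 0.00181). Its call held whichever library was left out but was lost in another alternative setting, with differences of -1.19 to -0.80 over all settings. OAS1, which makes the activator of RNase L, was at 93.3, 84.5, 99.5 and 90.6 CPM against 45.2, 56.3 and 66.4 CPM (-0.69, adjusted p = 0.000605). Neither gene had overlapping groups. STAT3, the factor downstream of IL6 and IL10, was higher by 0.48 (adjusted p = 0.0144) and the STAT3 list had 6 of 17 tested called higher and 0 lower (median 0.09; 4 to 6 when each library was left out in turn, 3 with the wild-type clone 3 library added), with IL6, IL10 and BATF among them.

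A size rule took the 12 higher and 12 lower called genes with the largest differences among those with non-overlapping groups and at least 5 CPM in the higher group. SPIC, an ETS factor of the PU.1 family, was at 1.16, 0.454, 1.25 and 0.838 CPM in wild-type clones and at 4.76, 21.8 and 30.5 CPM in A428D clones (4.27 ± 0.89, adjusted p = 0.023), a call lost when any of the 4 wild-type clones was left out. ANPEP, the aminopeptidase CD13, was at 1.66, 3.41, 3.39 and 2.72 CPM against 8.02, 27.1 and 32.9 CPM (3.07 ± 0.48, adjusted p = 0.00497). TNFRSF11A, which encodes the receptor RANK, was at 2.32, 1.59, 1.6 and 2.1 CPM against 3.13, 9.57 and 12.2 CPM (2.14 ± 0.42, adjusted p = 0.00922). Each of these 3 genes was also higher under DMSO in A428D clones, with log2 differences there of 3.77, 1.5 and 2.61. The organic anion transporter SLCO5A1 (2.38), MESP1 (2.12), MELTF (2.02) and the smooth muscle myosin MYH11 (1.84) completed the higher end beside IL6, CCL4L2, IL10, HLA-DQB1 and CD83.

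At the lower end, the taste receptor subunit TAS1R3 was at 15.6, 7.04, 18.5 and 10.1 CPM in wild-type clones and at 0.649, 1.49 and 2.13 CPM in A428D clones (-3.15 ± 0.30, adjusted p = 4.52e-05). GNB3, a G protein beta subunit, was at 18.9, 10.5, 34.1 and 26.0 CPM against 1.69, 4.31 and 6.64 CPM (-2.41 ± 0.38, adjusted p = 0.00482). ID3, an inhibitor of E proteins, was at 51.7, 57.7, 78.1 and 80.7 CPM against 12.3, 15.4 and 30.4 CPM (-1.89 ± 0.24, adjusted p = 0.00137). Their wild-type means were higher with bexobrutideg than without it. GNB3 averaged 6.52, 22.2, 4.71 and 22.6 CPM in wild-type clones and 4.50, 5.23, 4.06 and 4.34 CPM in A428D clones under DMSO, bexobrutideg, venetoclax and the combination. NLRP7 (-3.03) and TMEM154 (-2.29) differed already under DMSO (-1.59 and -1.94). CD27, VPREB3, RBMS3 (-1.61, lost when any of 8 libraries was left out), SMPD3 (-1.61), CPNE5 (-1.56), SUSD3 (-1.53) and SNORA59B (-1.52) completed this end, and reads of SNORA59B cannot be told apart from those of SLC47A1, in which it lies.

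Over all genes, the genotype difference under the combination differed from that under DMSO for 250 of 14553 genes (1.72%), 142 higher and 108 lower. With clone as a block it differed for 1491 genes (10.2%). Against venetoclax alone it differed for 477 genes (3.28%), or 1896 (13%) with the block. Against bexobrutideg alone edgeR called 0 genes (0%), with 646 at an unadjusted p under 0.05, 0 by DESeq2, 17 with the block (0.117%) and 26 without an expression filter. A count of 0 does not show that these genotype contrasts are equal. Of the genes chosen for the largest change from DMSO, 6 in each direction with at least 5 CPM, those that passed were SESN2 (2.12), SEMA4A (1.96, lost without wild-type clone 1) and IL10 (1.92) upward, and VPREB3 and CD27 (-2.1 each) downward. IL10's call (adjusted p = 0.0394) was lost without wild-type clone 1, 2, 4 or 5 or A428D clone 2 or 6. CCL22, a chemokine target of NF-kB too scarce to be tested under the combination alone, averaged 3.70, 0.860, 8.70 and 0.676 CPM in wild-type clones and 0.857, 0.621, 0.768 and 1.11 CPM in A428D clones (change against DMSO 2.77 ± 0.72, adjusted p = 0.0311).

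**Figure D5:**
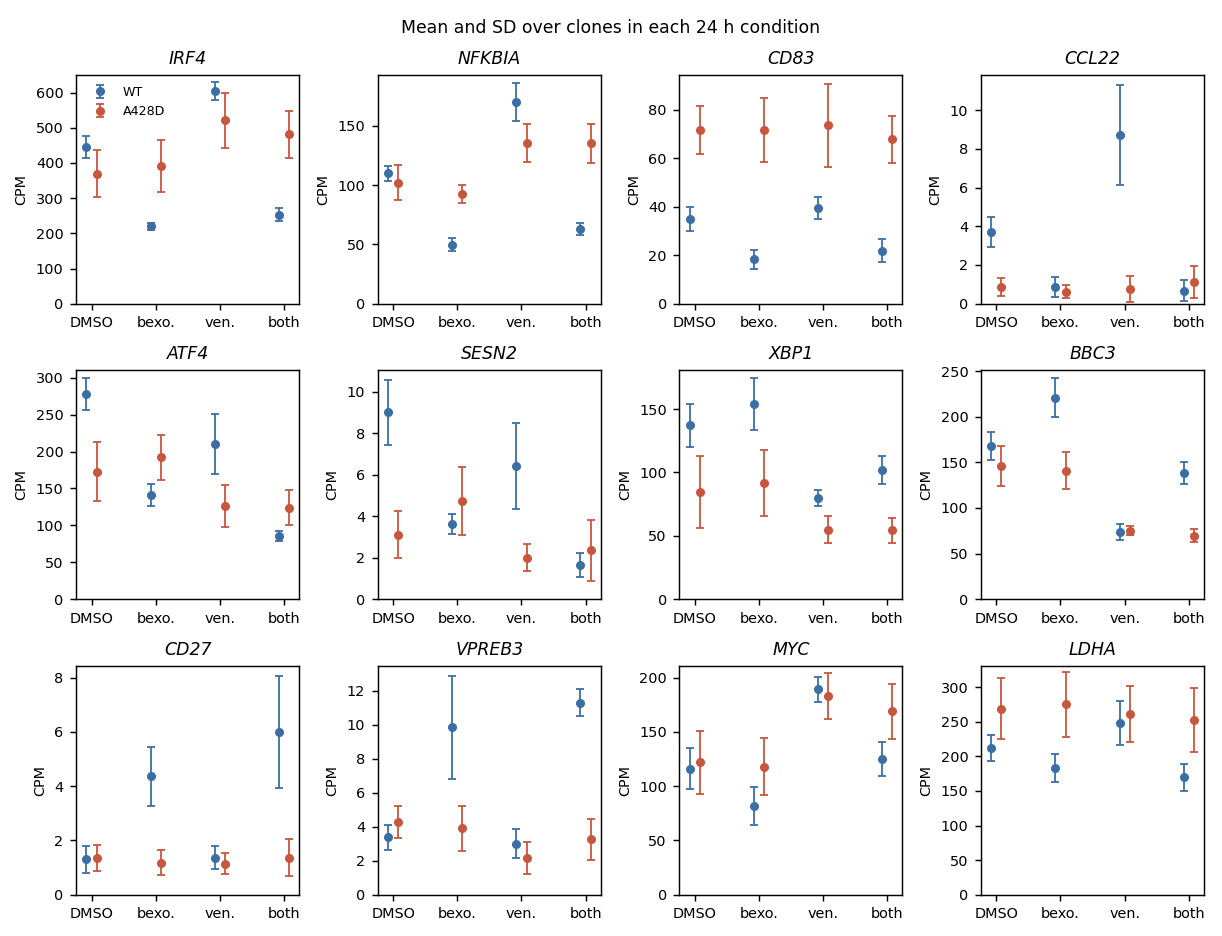
Mean CPM ± SD over clones of 12 genes under DMSO, bexobrutideg, venetoclax and both drugs, with wild-type clones in blue (n = 5, and 4 with both drugs) and A428D clones in red (n = 6). Wild-type means of NFKBIA and IRF4 are lower and those of BBC3, CD27 and VPREB3 higher with bexobrutideg than without it, and A428D means of BBC3 are 146 and 141 CPM under DMSO and bexobrutideg.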

How the data were processed

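Illumina 3′ RNA-seq of TMD8 clones was deposited as a table of estimated counts per gene. Per the submitters' processing notes, the authors used fastp 0.24.0, STAR 2.7.11, featureCounts from Subread 2.1.1, and SAMtools, FastQC and MultiQC, with GRCh38. The strand setting and the annotation release are not given in the sources used here. Of the deposited estimated counts, 8.75% were not whole. They were rounded, and 92 spike-in entries (at most 0.001% of counts) were dropped.

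Genes were tested with edgeR 4.0.16 (R 4.3.3; quasi-likelihood, TMM scaling, filterByExpr with a minimum count of 10) and Benjamini-Hochberg adjustment over all genes, called at an adjusted p under 0.05. All adjusted p-values of genes come from edgeR. The genotype comparison used 10 libraries, and contrasts over DMSO, bexobrutideg, venetoclax and the combination used 43, without the wild-type clone 3 combination library. CPM are TMM-scaled. P-values of the 10-library comparison measure the spread between clones. The 43-library fit without a block counted libraries of the same clone as independent. Its p-values for genotype differences under DMSO, bexobrutideg or venetoclax may therefore be too small, and clones are nested in genotype, so no clone block can be fitted for them. The scripts were tested on simulated data. No pair of replicates agreed within sampling noise (lowest chi-square per degree of freedom 2.14).

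The conditions share clones: libraries of 1 clone deviated together (median correlation 0.73, -0.08 to 0.97, against -0.18 between clones), so clone was a block in the alternative fit of contrasts within clones.

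Members and lists were chosen with earlier results of these data known. Named genes are BTK, IKZF1, IKZF3, CRBN, IRF4, MYC, BCL2 and MCL1; the 12 higher and 12 lower called genes of largest difference with non-overlapping groups and at least 5 CPM; up to 4 called genes per list by adjusted p; and the genes of largest change, 6 per direction against DMSO and 3 against each single drug. Not every gene these rules select is reported here. Other list members named were chosen after their values were seen.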

Additional observations from a re-analysis of the deposited data

Results flagged for a closer look

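In 17 of 232 groups of 4 or 6 clones, the highest or lowest value stood far from the others, where chance alone gives about 1 in 20. Among wild-type clones these were clone 4 for ATF5 (733 CPM, next value 520), NFKBIA (69.5, next 60.4) and VIM-AS1 (24.8, next 4.64), clone 1 for DAPP1 (58.6, next 49.2), IKZF3 (161, next 124) and MYH11 (3.98, next 1.59), and clone 5 for NFKB1 (49.3, next 46.9) and USP40 (0.21, next 0). Among A428D clones they were clone 4 for BMF (16.5 CPM, next 22.4) and PIM3 (96, next 70.7), clone 2 for NLRP7 (9.39, next 2.79) and SNORA59B (3.76, next 1.91), clone 5 for INSIG1 (184, next 121) and PTPN6 (76.1, next 86.4), and clone 3 for RNU4ATAC (13.9, next 4.38). The A428D clone 6 library had 5050352 counts where the next had 6654576, and 23.6% ribosomal protein transcripts where the next had 21.9%. Reads of VIM-AS1 and VIM, and of RNU4ATAC and CLASP1 around it, cannot be told apart without the strand setting.

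For 26 named genes, the change from DMSO to the combination differed between the genotypes in the 4-condition edgeR fit. Over all genes 250 of 14553 (1.72%) did. Most of these genes were named for a call under the combination or for a large change, on shared libraries, so their number is no separate result. The change (log2, A428D minus wild-type) was positive for the NF-kB and activation genes NFKBIA (1.22), RELB (1.01), IL10 (1.92), IRF4 (1.2), CCL22 (2.77), BATF (0.93), DUSP2 (1.12), EGR2 (3.25) and PTPN6 (0.53). It was positive too for the stress genes ATF4 (1.22), ATF5 (1.45), PSAT1 (1.33), CARS1 (1.02), SESN2 (2.12) and the mitochondrial chaperone HSPA9 (0.38), for the p53 targets MDM2 (0.4) and PLK3 (1), and for SEMA4A (1.96) and TPRG1 (2.14). It was negative for BBC3 (-0.79), CD27 (-2.1), VPREB3 (-2.1), ID3 (-1.38), ISG20 (-0.85), SUSD3 (-1.4) and the endothelial and leukocyte adhesion gene PECAM1 (-2.3). PECAM1 averaged 1.93, 5.08, 0.943 and 4.72 CPM in wild-type clones and 1.64, 1.57, 1.17 and 0.783 CPM in A428D clones under DMSO, bexobrutideg, venetoclax and the combination.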

How the results depend on the processing

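For the genotype difference under the combination (1048 genes), leaving out each clone in turn gave 443 to 1956, no expression filter gave 1683, adding the wild-type clone 3 library gave 243, and adding it with the GC trend removed, an alternative chosen after seeing the data, gave 449. Median-of-ratios scaling, DESeq2, equal depth and removal of the GC trend kept the count within 1.5 times. The change from DMSO (250 genes) became 388 with DESeq2, 420 without a filter, 162 with the clone 3 library added, 135 without all clone 3 libraries and 104 to 360 when each clone was left out. The change from bexobrutideg (0 genes) became 26 without a filter and 0 when each clone was left out. The change from venetoclax (477 genes) became 305 without clone 3 and 219 to 590 when each clone was left out. The combination against DMSO gave 1723 to 3311 genes in wild-type clones and 1881 to 2991 in A428D clones when each clone was left out, and 1852 in A428D clones with the clone 3 library added. The cause of these shifts was not tested.

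The replicate block by clone gave 1491, 17 and 1896 genes for the changes from DMSO, bexobrutideg and venetoclax, and 4952 and 5043 for the combination against DMSO in wild-type and A428D clones. Clone numbers do not pair the genotypes (correlations of 0.12, 0.03, -0.19 and -0.07 for numbers 1, 2, 4 and 5, of which only wild-type clone 1 matched its own number best), and a block by number gave 711 genes.

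Of 96 called genes examined singly, 94 were called by DESeq2. With the clone 3 library added, the genotype difference was -0.07 for MYC and -0.10 for MDM2, and MYC's change from DMSO was -0.12. With the GC trend also removed, MYC was at -0.41 and RRS1 at -0.01. MCL1's change from DMSO ran from -0.13 to 0.01 when each clone was left out. Depth of 4475082 to 7613384 counts limits the precision of scarce transcripts, such as IL6 and EGR2 in wild-type clones and CD27 in A428D clones.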

Other observations

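Cholesterol and fatty acid synthesis genes fell with the combination in both genotypes. The combination against DMSO called 19 of 26 lower and 0 higher in wild-type clones (median -0.66), beside 9.54% of all genes lower. In A428D clones it called 19 lower and 0 higher (median -0.49), beside 9.85% of all genes lower. The genotype difference under the combination passed for 3 higher (INSIG1, FASN and ACLY) and 1 lower (HSD17B7), beside 4.09% and 4.04% of all genes. Leaving out single libraries lost FASN in 7 of 10 cases and INSIG1 and HSD17B7 in 5 each, and 0 of the 4 passed with the wild-type clone 3 library added. Of 46 cytosolic ribosomal protein genes, the combination against DMSO called 13 higher and 1 lower in wild-type clones and 0 higher and 21 lower in A428D clones. Of all genes, 10.6% were higher in wild-type and 9.85% lower in A428D clones. Under DMSO 23 were higher in A428D clones (median 0.18), beside 4.55% of all genes. The counts for the combination against DMSO moved with single libraries, to 9 to 17 higher in wild-type clones and 8 to 25 lower in A428D clones. They were 4 and 0 with the wild-type clone 3 library added. Heat shock chaperone genes had 5 of 21 higher and 1 lower (median 0.19), with 0 to 5 higher when each library was left out in turn and 0 with the wild-type clone 3 library added. The inducible HSPA1A, whose reads may be shared with HSPA1B, ranged from 2.25 to 131 CPM over the A428D clones. Of 16 replication-dependent histone genes 0 were higher and 4 lower (median -0.29), among them H4C3 (-0.81), with 2 to 5 lower when each library was left out in turn and 0 with the wild-type clone 3 library added. Of 13 mitochondrially encoded transcripts 0 were higher and 2 lower (MT-ND5, -0.46, lost in 7 of 10 such cases, and MT-CO1, -0.42, lost in 6), with 0 to 5 lower when each library was left out in turn and 0 with the wild-type clone 3 library added.

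Some genes split the A428D clones. SP110 (chr2:230167293-230225729), a nuclear body protein gene, was at 100, 0.525, 90, 0.4, 74.4 and 70.1 CPM of total counts in A428D clones 1 to 6, and at 0.818, 0.447, 1.76 and 0.588 CPM in wild-type clones 1, 2, 4 and 5. Its neighbour SP140 (chr2:230203110-230313215) was at 102, 0, 82.1, 0, 60.6 and 53.9 CPM in the A428D clones. SP140L (chr2:230327184-230403732), next to both, was at 26.1, 0.131, 20.1, 0.267, 15 and 14.3 CPM. Over the 4 conditions, the 16 libraries of A428D clones 1, 3, 5 and 6 had 61.7 to 100 CPM of SP110 and the other 27 libraries had 0.146 to 3.28 CPM. Within the 10 libraries of the combination alone, 7 genes stood in these 4 clones at more than 4 times the level of any other library. Of these genes 6 lie on chromosome 2, USP40 and ZDBF2 among them. Over the 4 conditions, ZDBF2 was at 7.3 to 19.3 CPM in the 16 libraries and at 0 to 0.318 CPM in the others. These genes were picked after their values were seen, no test was run on them, and SP110 did not pass between the genotypes (adjusted p = 0.0955).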
